A study of Mus musculus with 24 samples.

Results

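Genes that were lower at night than in every daytime library, with no overlap, were taken from RNA-seq of mouse retinal pigment epithelium (RPE) through a light and dark cycle. The RPE is the pigmented cell layer that supports rods and cones and digests the outer segment tips they shed. A gene was a member when it was protein-coding, averaged at least 1 CPM over 22 libraries (a gene's count divided by the library total, times 1000000), and had its highest night value below its lowest day value. Night was 15 h and 16 h after light onset (5 libraries), and day was 1, 3, 5, 6 and 9 h (14 libraries). Of 13849 protein-coding genes at that level, 40 met these limits (0.289%), and 97 met the mirror limits, higher at night (0.7%). Ciart, Nr1d1, Dbp, Cyp26a1, Gdf10, Lox, Pde8b and Angptl4 were set aside by name, which left 32 members. The list of names held 10 genes, and Nr1d2 and Cry2 on it did not meet the limits. The members were thus chosen by their own night and day values, so that gap is described below and not tested. Fold changes of members, night minus day, and their standard errors (SE) are descriptions too. The rule fixed their direction and can enlarge them.

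All 24 mice were wild-type 129S1/SvlmJ with the Leu450 form of Rpe65, raised on standard diet in 12 h cyclic light that came on at 7 am, per the labels. Each of the 8 times, 0, 1, 3, 5, 6, 9, 15 and 16 h after light onset, had 3 mice, and 1 library was made from each mouse. No genetic change, drug or altered light schedule entered any group, and the age of the animals is not given in the sources used here. Sampling covered part of a single cycle with a gap from 9 h to 15 h, so recurrence on a later day was not measured. Night and day here differ in both light and hour of the day, which cannot be told apart.

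Libraries held 14073440 to 17492470 counts. Single libraries are written below as hour and mouse, so that 6 h #3 is the third mouse of 6 h. A pair of libraries differed most from the rest, 6 h #3 and 15 h #3, and the rule left both out. Mitochondria-encoded transcripts made up 3.34% and 0.837% of their counts, against 3.84% to 6.81% in the others, and cytosolic ribosomal protein genes 2.32% and 5.04%, against 1.13% to 1.63%. RPE identity genes (20 of 20 detected) summed to 48769 to 58533 CPM at night and 45151 to 56690 CPM by day. Markers of other cells were also present: lens and ciliary body, muscle, blood, melanocytes and Schwann cells, macrophages and mast cells, fibroblasts and mural cells, endothelium, inner retina, cones and rods. No gene of these lists was at 0 in all 22 libraries. Cone markers summed to 28.5 to 60.4 CPM at night and 30.7 to 75.7 CPM by day, and endothelial markers to 553 to 855 CPM at night and 564 to 1495 CPM by day. In each of these lists the night and day ranges of the summed level overlapped. The night mean of the sum was 0.774 of the day mean for muscle (9 of 10 genes lower at night). It was 0.786 for endothelium (12 of 12), 0.821 for rods (15 of 16) and 0.832 for cones (7 of 9). For melanocytes and Schwann cells it was 0.782, but only 5 of 10 genes were lower at night. It was 0.916 to 0.942 for blood (4 of 7), macrophages and mast cells (13 of 16), and fibroblasts and mural cells (7 of 12). Inner retina (1.12, 8 of 16 genes lower) and lens and ciliary body (1.06, 2 of 12) were above the day mean. What part such cells have in the members' levels was not tested, and in bulk RNA fewer cells of a type and less RNA per cell cannot be told apart.

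Daily rhythms of transcription rest on a feedback loop in which CLOCK and BMAL1 bind E-box sequences and switch on their own repressors, while REV-ERB proteins, bound at other elements, repress in turn. The best known outputs of the loop with daytime RNA peaks in the mouse, Nr1d1, Dbp and Ciart, met the limits and were set aside. Of 24 core clock genes tested, 4 rose and 5 fell at night (edgeR, adjusted p under 0.05), against 2.75% of all genes higher and 1.89% lower. Nr1d1, Dbp and Ciart are 3 of the 5 that fell, and Nr1d2 and Cry2 the others. The remaining genes are not core parts of the loop. In the RPE, a burst of outer segment uptake after light onset brings lipid and protein for breakdown, and sterol and fatty acid handling, ion transport and secretion of factors towards the choroid are standing tasks of the layer.

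The members fell into several kinds by known role. Receptors and signalling proteins better known from neurons were Rasd2, Grin3a, Nptxr, Grk3 and Piezo2. Secreted or matrix proteins were Mmp3, Pgf and Pxdn. Lipid genes were Dhcr7, Hsd17b7, Scarb1, Dgat2 and Fabp7. Transcription and chromatin factors were Etv5, Creb3l1, Atf7ip and Gtf3c2. RNA-binding or splicing proteins were Hnrnpl, Hnrnpd, Rbm12 and Clk2. The rest were Cdc25b, Palb2, Atic, Mrto4, Msrb2, Accs, Klhl30, Bank1, Spata13, Slc26a11 and Slc35b3. These groups were formed after the members were known, and no test was made of them.

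Promoter sequences of the members were searched for short motifs. RefSeq promoters (GRCm38.p6, 250 bases before to 50 after each start, 300 in all) matched 23 of the 32 members by symbol, Rasd2 and Cdc25b among them. Grin3a, Nptxr, Grk3, Piezo2, Scarb1, Dgat2, Creb3l1, Klhl30 and Slc26a11 were not matched. The canonical E-box CACGTG, which reads the same on both strands, stood in the promoters of 5 of 23 members (21.7%), against 1245 of 10811 protein-coding genes with a promoter and a mean of at least 1 CPM (11.5%). They are printed here because they are the 5 members with this motif, each with the match in capitals and the rest in lower case, 5′ to 3′ on the gene's strand:
Dhcr7 promoter, chr7:143823149-143823448, + strand: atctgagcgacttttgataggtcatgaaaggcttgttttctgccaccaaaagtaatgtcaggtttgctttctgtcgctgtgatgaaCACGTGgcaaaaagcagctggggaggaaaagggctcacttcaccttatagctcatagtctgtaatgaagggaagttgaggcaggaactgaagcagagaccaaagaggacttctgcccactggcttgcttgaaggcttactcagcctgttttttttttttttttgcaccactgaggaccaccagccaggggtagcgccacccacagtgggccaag
Hsd17b7 promoter, chr1:169969156-169969455, - strand: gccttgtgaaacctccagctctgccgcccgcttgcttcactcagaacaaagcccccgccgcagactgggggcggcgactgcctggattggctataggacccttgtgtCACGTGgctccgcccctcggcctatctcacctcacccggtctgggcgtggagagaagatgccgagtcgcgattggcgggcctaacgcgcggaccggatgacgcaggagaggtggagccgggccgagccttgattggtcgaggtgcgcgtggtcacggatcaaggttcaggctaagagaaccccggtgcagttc
Clk2 promoter, chr3:89164545-89164844, + strand: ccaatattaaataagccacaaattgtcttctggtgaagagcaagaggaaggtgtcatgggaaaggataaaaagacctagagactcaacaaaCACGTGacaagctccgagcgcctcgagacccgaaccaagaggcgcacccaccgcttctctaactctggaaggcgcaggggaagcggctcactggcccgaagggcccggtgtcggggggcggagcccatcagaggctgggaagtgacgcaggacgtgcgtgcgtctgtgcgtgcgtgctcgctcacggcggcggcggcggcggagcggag
Hnrnpd promoter, chr5:99978889-99979188, - strand: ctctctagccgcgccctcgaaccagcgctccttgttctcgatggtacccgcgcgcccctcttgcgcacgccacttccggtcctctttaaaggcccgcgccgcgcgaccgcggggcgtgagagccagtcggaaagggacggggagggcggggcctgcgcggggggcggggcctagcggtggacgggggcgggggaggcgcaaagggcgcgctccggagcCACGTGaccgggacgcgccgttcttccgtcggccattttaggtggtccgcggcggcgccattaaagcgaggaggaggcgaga
Atic promoter, chr1:71556906-71557205, + strand: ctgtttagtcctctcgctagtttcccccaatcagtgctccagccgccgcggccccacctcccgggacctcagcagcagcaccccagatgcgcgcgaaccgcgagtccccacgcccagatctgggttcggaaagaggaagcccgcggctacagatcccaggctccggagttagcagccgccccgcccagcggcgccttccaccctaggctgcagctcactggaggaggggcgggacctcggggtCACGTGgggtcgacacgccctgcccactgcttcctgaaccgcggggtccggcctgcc

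The E-box lay 164 bases before the start in Dhcr7 (position -164, at 1 of 3 starts listed for this gene), and at -143 in Hsd17b7, -159 in Clk2, -32 in Hnrnpd and -7 in Atic. Dhcr7 and Hsd17b7 encode enzymes of cholesterol synthesis, Clk2 a kinase of splicing factors, Hnrnpd an RNA-binding protein and Atic the enzyme of the last steps of purine synthesis. The E-box variant CACGTT, searched on both strands, was found in 1 member (Atf7ip, 4.35%), against 6.23% of genes, and the palindromic glucocorticoid response element in 1 (Atf7ip, 4.35%), against 0.463%. The D-box forms TTATGTAA (0.703% of genes) and TTACGTAA (0.157%), the cyclic AMP element TGACGTCA (3.42%) and the ROR response element (0.13%) were found in 0 of 23. None of the spelled patterns contains another, and a match is only a match of letters in this window. The median GC content was 60.2% over the 30 member promoters and 60.3% over all promoters compared. The 32 members lay on 17 chromosomes, with 5 on chromosome 2 and 4 each on chromosomes 5 and 7.

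Most members were lower at night by a modest amount. Night means ran from 0.138 to 0.898 of the day mean with a median of 0.762, while the median over all 13849 genes was 0.989. In 18 members the night mean was under 0.8 of the day mean. The members' median of the mean level, 24.1 CPM, was close to the 24.98 CPM of all genes, and per kilobase of gene length it ran from 0.169 CPM (Bank1) to 42.2 CPM (Hnrnpl). Just inside the limit, the lowest day value over the highest night value was 1.0042 for Mrto4, 1.0058 for Accs, 1.0059 for Pxdn, 1.0066 for Atf7ip and 1.0067 for Hnrnpl. Just outside it stood Olfm2 (0.998), Itga4 (0.997), Acsf2 (0.996), Fam114a1 (0.995) and Mov10 (0.991). Members and other genes thus met at the limit without a gap.

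**Figure D1:**
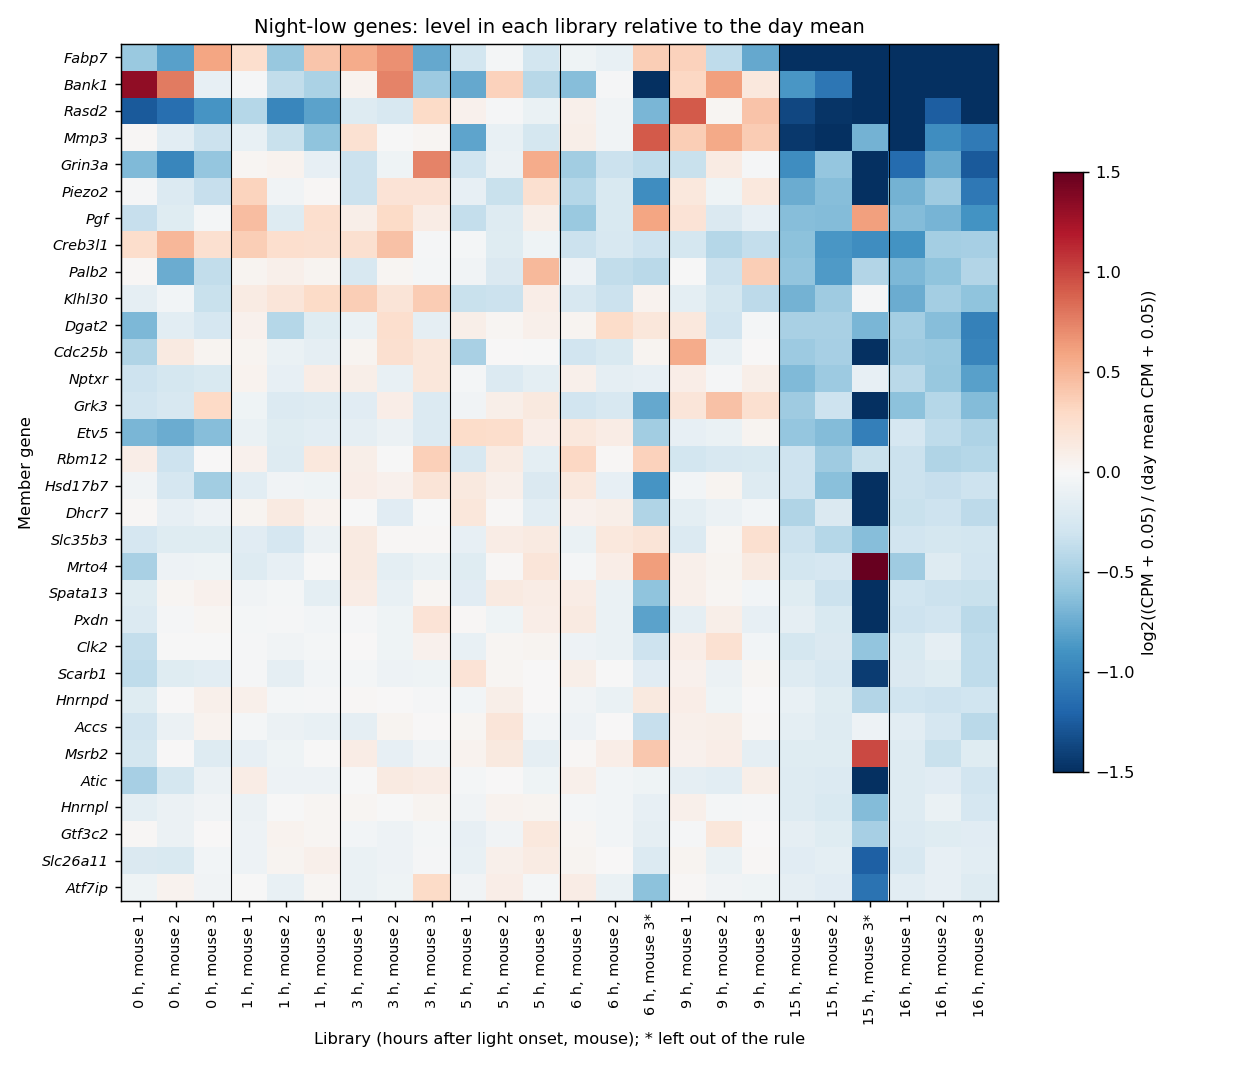
Each row is a member and each column a library, in order of hours after light onset, and colour shows log2 of (CPM + 0.05) over (day mean CPM + 0.05). Rows are sorted from the lowest night share of the day mean (Fabp7, 0.138) to the highest (Atf7ip, 0.898), and the libraries marked * are the 2 that the rule left out.

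**Figure D2:**
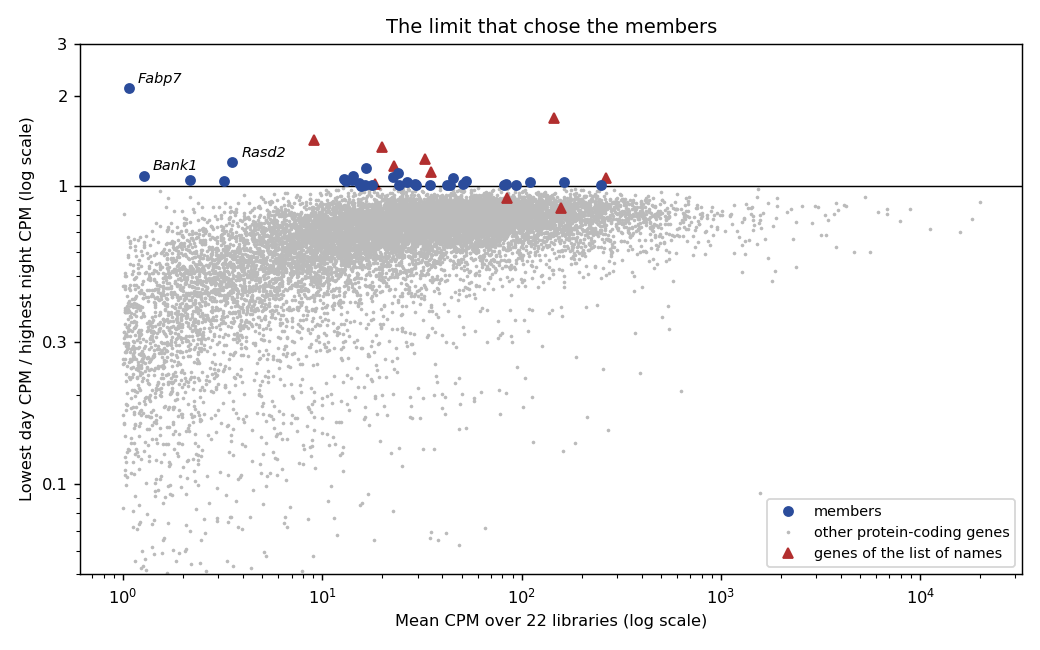
The lowest day CPM over the highest night CPM is plotted against the mean CPM over 22 libraries, both on log scales, for the 13849 protein-coding genes that passed the expression limit. Circles are the 32 members, grey dots other genes and triangles the 10 genes of the list of names, 2 of which lie below the line at 1. The axis ends at 0.05, and 126 genes lie below it. Members crowd against the line, with Fabp7 (2.14) and Rasd2 (1.21) farthest above it.

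Rasd2 (ENSMUSG00000034472, build mm10 here and below, chromosome 8, 75213944 to 75224113) encodes Rhes, a small GTPase of the RASD family known from the striatum. It stood at 1.86, 2.04 and 2.42 CPM at 0 h, 3.35, 2.27 and 2.56 CPM at 1 h, 3.94, 3.81 and 5.53 CPM at 3 h, and 4.73, 4.47 and 4.23 CPM at 5 h. Later values were 4.75 and 4.35 CPM at 6 h, 8.57, 4.59 and 6.08 CPM at 9 h, 1.72 and 1.60 CPM at 15 h, and 1.45, 1.88 and 1.56 CPM at 16 h. All 9 h libraries were thus above all 1 h libraries, and of the other libraries 1, at 0 h, lay within the night range. The night mean was 0.363 of the day mean, a log2 fold change, night minus day, of -1.40 (SE 0.17), whose direction the rule fixed. Its counts were low, at 22 to 32 per library at night and 38 to 134 by day.

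Grin3a (ENSMUSG00000039579, chromosome 4, 49661611 to 49845744) encodes a regulatory subunit of NMDA glutamate receptors. It was at 1.97 and 2.53 CPM at 15 h and 1.69, 2.23 and 1.56 CPM at 16 h, against 2.63 to 6.43 CPM by day (median 3.61), a log2 fold change of -0.86 (SE 0.19). Its day values spread widely, with single mice at 6.43 CPM (3 h) and 5.63 CPM (5 h). Of the 6 other NMDA receptor genes tested, 1 fell at night, Grin2d, at 5.77 CPM at night and 8.77 CPM by day (log2 fold change -0.52, SE 0.14, adjusted p = 0.0339). Over all genes 4.63% were called for night against day, 1.89% lower and 2.75% higher (edgeR's quasi-likelihood test, Benjamini-Hochberg adjusted p under 0.05). Grin3b was at 3.04 CPM at night and 2.53 CPM by day and did not pass.

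Nptxr (ENSMUSG00000022421, chromosome 15, 79786351 to 79804766), the neuronal pentraxin receptor of excitatory synapses, had 11.6 and 12.6 CPM at 15 h and 13.9, 12.5 and 10.5 CPM at 16 h, against 16.1 to 20.8 CPM by day (median 18.8). Its lowest day library was 1.15 times its highest night library. Part of its exons (17.2% of bases) is shared with Npcd on the same strand, which makes its level less certain. Levels of Grk3, a kinase that shuts off activated G protein-coupled receptors, and Piezo2, a mechanically gated cation channel, averaged 22.1 ± 2.15 CPM at night and 31.3 ± 4.89 CPM by day for Grk3, and 15.3 ± 2.04 CPM at night and 25.4 ± 4.17 CPM by day for Piezo2 (SD, n = 5 and 14). Of 5 other G protein-coupled receptor kinase genes 0 passed for night against day by edgeR, DESeq2 or limma-voom, and 0 had an unadjusted p under 0.05. Night and day values of Grk3 nearly met, with 25.2 CPM as the highest at night and 25.6 CPM as the lowest by day.

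Among 10 other RASD and RASL genes tested, 2 rose at night and 0 fell. They were Rasl11a (log2 fold change 1.09, SE 0.12, adjusted p = 1.4e-06) and Rasl11b (0.85, SE 0.09, adjusted p = 3.45e-06). By DESeq2 and limma-voom 2 of the 10 were also called, and 2 had an unadjusted p under 0.05.

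Mmp3 and Pgf led the secreted proteins. Mmp3 (ENSMUSG00000043613, chromosome 9, 7445822 to 7455975), stromelysin 1, a protease of the extracellular matrix, was at 28.3, 25.1 and 22.3 CPM at 0 h, 25.9, 22.2 and 18.3 CPM at 1 h, 32.8, 27.9 and 28.5 CPM at 3 h, and 16.2, 25.9 and 23.2 CPM at 5 h. It had 29.7 and 26.9 CPM at 6 h, 36.2, 41.3 and 36.4 CPM at 9 h, 10.2 and 9.71 CPM at 15 h, and 9.72, 14.6 and 13.4 CPM at 16 h. The 9 h libraries were above every other library of the 22, and the 5 night libraries below every other. The night mean was 0.413 of the day mean (log2 fold change -1.28, SE 0.11).

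Pgf (ENSMUSG00000004791, chromosome 12, 85166635 to 85177790), placental growth factor, a VEGF family ligand of the receptor FLT1, had 32.3 and 32.0 CPM at 15 h and 32.2, 31.0 and 26.9 CPM at 16 h, against 34.3 to 69.6 CPM by day (median 49.8). The night libraries were close to each other, while the day libraries were spread more widely. Of the 8 other VEGF family and receptor genes tested 0 passed for night against day by edgeR, DESeq2 or limma-voom, and 2 had an unadjusted p under 0.05. Pxdn, peroxidasin, which crosslinks collagen IV, was at 81 ± 5.61 CPM at night and 97.7 ± 6.97 CPM by day (SD, n = 5 and 14). Of 15 other matrix metalloproteinase and TIMP genes, 1 fell at night, Mmp2, at 0.824 of its day mean. These lists, that of receptor kinases above, and those of lipid genes, hnRNP proteins and splicing kinases below were drawn up after the members were seen.

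Lipid genes among the members covered sterol synthesis, lipoprotein uptake and triglyceride synthesis. Dhcr7 (ENSMUSG00000058454, chromosome 7, 143823145 to 143848410), whose enzyme makes cholesterol from 7-dehydrocholesterol, had 40.4 and 47.4 CPM at 15 h and 43.9, 44.7 and 41.9 CPM at 16 h, against 49.2 to 62.0 CPM by day (median 55.6). Hsd17b7 (ENSMUSG00000026675, chromosome 1, 169949535 to 169969241), a reductase earlier in the same branch, had 11.1 and 8.91 CPM at 15 h and 11, 10.9 and 11.2 CPM at 16 h, against 11.8 to 15.8 CPM by day (median 13.8). Log2 fold changes were -0.34 (SE 0.06) for Dhcr7 and -0.39 (SE 0.09) for Hsd17b7. Both carry one of the E-box matches printed above.

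Other genes of the cholesterol pathway did not pass the test in edgeR. Of 22 other genes of cholesterol synthesis and its control that were tested, 20 had a negative log2 fold change at night, with a median of -0.11 against -0.01 over all genes. By edgeR 0 of the 22 were called, with 5 at an unadjusted p under 0.05, while DESeq2 called 3 and limma-voom 0. Cyp51 was at 0.824 and Hmgcs1 at 0.853 of the day mean at night, and Srebf2, which encodes the transcription factor of the pathway, at 0.971.

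Scarb1 (ENSMUSG00000037936, chromosome 5, 125277087 to 125341094), the HDL receptor that takes up cholesterol and carotenoids, was at 132, 151 and 154 CPM at 0 h, 170, 156 and 167 CPM at 1 h, 169, 162 and 164 CPM at 3 h, and 198, 175 and 173 CPM at 5 h. It had 182 and 171 CPM at 6 h, 179, 162 and 175 CPM at 9 h, 150 and 146 CPM at 15 h, and 148, 151 and 132 CPM at 16 h. All 3 libraries of 0 h lay under every day library, and 1 of them within the night range. Dgat2, which makes triglyceride from diacylglycerol, was at 9.57 ± 1.37 CPM at night and 14.7 ± 1.96 CPM by day (SD, n = 5 and 14). Of 13 other genes of triglyceride synthesis and lipoprotein uptake 1 fell at night, Plin2, which coats lipid droplets.

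Fabp7, a fatty acid carrier typical of glia, showed the widest gap and the fewest reads. Night libraries held 1 to 6 counts and day libraries 13 to 38. Summed over libraries it had 15 counts at night, or 0.191 CPM (exact Poisson 95% interval 0.107 to 0.316), against 312 counts by day, or 1.35 CPM (1.20 to 1.51). Bank1, an adaptor of B cell receptor signalling, had 37 counts at night, or 0.472 CPM (0.332 to 0.65), against 307 by day, or 1.33 CPM (1.18 to 1.49). Such intervals cover counting error only, and they rest on the night and day counts that chose the genes, so they are no test of the gap. Fabp7 averaged 0.186 CPM at night and 1.07 CPM over the 22 libraries, and Bank1 0.472 and 1.27 CPM. Both thus met the limit of 1 CPM on the mean only through the libraries outside the night. Among 16 macrophage and mast cell markers 4 fell at night, Mcpt4, Cma1, Cpa3 and Cx3cr1, and their summed level was 2206 to 2620 CPM at night and 2184 to 3198 CPM by day.

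The transcription and chromatin factors differed in their time courses. Etv5 (ENSMUSG00000013089, chromosome 16, 22381309 to 22439719), an ETS factor that FGF and ERK signalling induces, was at 77.3, 74.2 and 79.7 CPM at 0 h, 116, 109 and 111 CPM at 1 h, 113, 117 and 108 CPM at 3 h, and 151, 149 and 133 CPM at 5 h. It had 139 and 135 CPM at 6 h, 114, 116 and 128 CPM at 9 h, 83.2 and 79.2 CPM at 15 h, and 104, 95.1 and 90.2 CPM at 16 h. Among the 22 libraries those of 5 h and 6 h were above all others, and the 0 h libraries lay below its highest night value, 2 of them below the lowest. The left-out library 6 h #3 had 86.4 CPM, within the night range. Etv5 drops out of the members when CPM are scaled by edgeR's TMM factors, and so do Atf7ip, Slc26a11, Msrb2, Accs and Slc35b3.

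Creb3l1 (ENSMUSG00000027230, chromosome 2, 91982328 to 92024502), which encodes OASIS, a membrane-bound bZIP factor released by cleavage in the Golgi, was at 17.7, 21.0 and 17.5 CPM at 0 h, 19.1, 17.7 and 17.4 CPM at 1 h, 17.5, 20.1 and 14.6 CPM at 3 h, and 14.5, 13 and 14.2 CPM at 5 h. Values were 11.8 and 12.5 CPM at 6 h, 12.3, 11 and 11.6 CPM at 9 h, 9.61 and 8.04 CPM at 15 h, and 7.91, 10.4 and 10.4 CPM at 16 h. It was highest around light onset, and its 6 h and 9 h libraries lay under all libraries of 0 h to 5 h. Atf7ip, a partner of the histone methyltransferase SETDB1, and Gtf3c2, a subunit of the RNA polymerase III factor TFIIIC, had smaller gaps. Atf7ip was at 75.1 ± 1.37 CPM at night and 83.7 ± 6.61 CPM by day, and Gtf3c2 at 40 ± 0.653 CPM at night and 45.1 ± 2.71 CPM by day (SD, n = 5 and 14). Gtf3c2 shares 38.9% of its exonic bases with Gm29609, an overlapping gene model.

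Hnrnpl had the highest level per kilobase of all members. The gene, whose product regulates splicing and RNA stability, was at 228 ± 9.5 CPM at night and 261 ± 8.4 CPM by day, and Hnrnpd (AUF1), which binds AU-rich RNA, at 73.5 ± 4.52 CPM at night and 86.7 ± 3.39 CPM by day (SD, n = 5 and 14). Of 18 other hnRNP genes, 2 rose at night and 0 fell, Hnrnpul2 (log2 fold change 0.15, adjusted p = 0.0231) and Hnrnph3 (0.20, adjusted p = 0.0328). The log2 fold changes of Hnrnpl and Hnrnpd, whose direction the rule fixed, were -0.19 and -0.22. Clk2, which phosphorylates SR splicing proteins, was at 44.7 ± 2.66 CPM at night and 52.9 ± 3.48 CPM by day. Of 6 other SR protein kinase genes 0 passed by edgeR, DESeq2 or limma-voom, and 1 had an unadjusted p under 0.05. Rbm12 was at 12.3 ± 0.767 CPM at night and 16.3 ± 2.44 CPM by day (SD, n = 5 and 14 for both), and 33.1% of its exonic bases are shared with Cpne1 and a predicted gene.

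Cdc25b (ENSMUSG00000027330, chromosome 2, 131186949 to 131198497), a phosphatase that activates cyclin-dependent kinases for entry into mitosis, had 12.2 and 12.6 CPM at 15 h and 12.3, 12.1 and 8.95 CPM at 16 h, against 12.7 to 26.1 CPM by day (median 17.8). One library of 9 h was at 26.1 CPM, and 1 library of 5 h, at 12.7 CPM, nearly met the highest night value of 12.6 CPM. Of 16 other genes of G2/M control, 1 rose at night, Wee1, the kinase that opposes CDC25 (log2 fold change 0.57, SE 0.07, adjusted p = 9.03e-06). The log2 fold change of Cdc25b, whose direction the rule fixed, was -0.57 (SE 0.11), and the 2 genes were not tested against each other. Palb2, which brings BRCA2 to sites of homologous recombination, was at 1.56 ± 0.161 CPM at night and 2.43 ± 0.431 CPM by day (SD, n = 5 and 14).

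Most of the other members differed by smaller amounts. Slc26a11, an anion transporter, Slc35b3, which carries the sulfate donor PAPS into the Golgi, Atic, Mrto4, a ribosome assembly factor, Msrb2, a mitochondrial methionine sulfoxide reductase, Accs and Spata13 had night means between 0.804 and 0.891 of the day mean. Klhl30 (ENSMUSG00000026308, chromosome 1, 91351016 to 91362416) had 0.651, with 9.55 and 10.8 CPM at 15 h and 9.30, 11 and 10.3 CPM at 16 h, against 11.9 to 20.4 CPM by day (median 15.5).

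**Figure D3:**
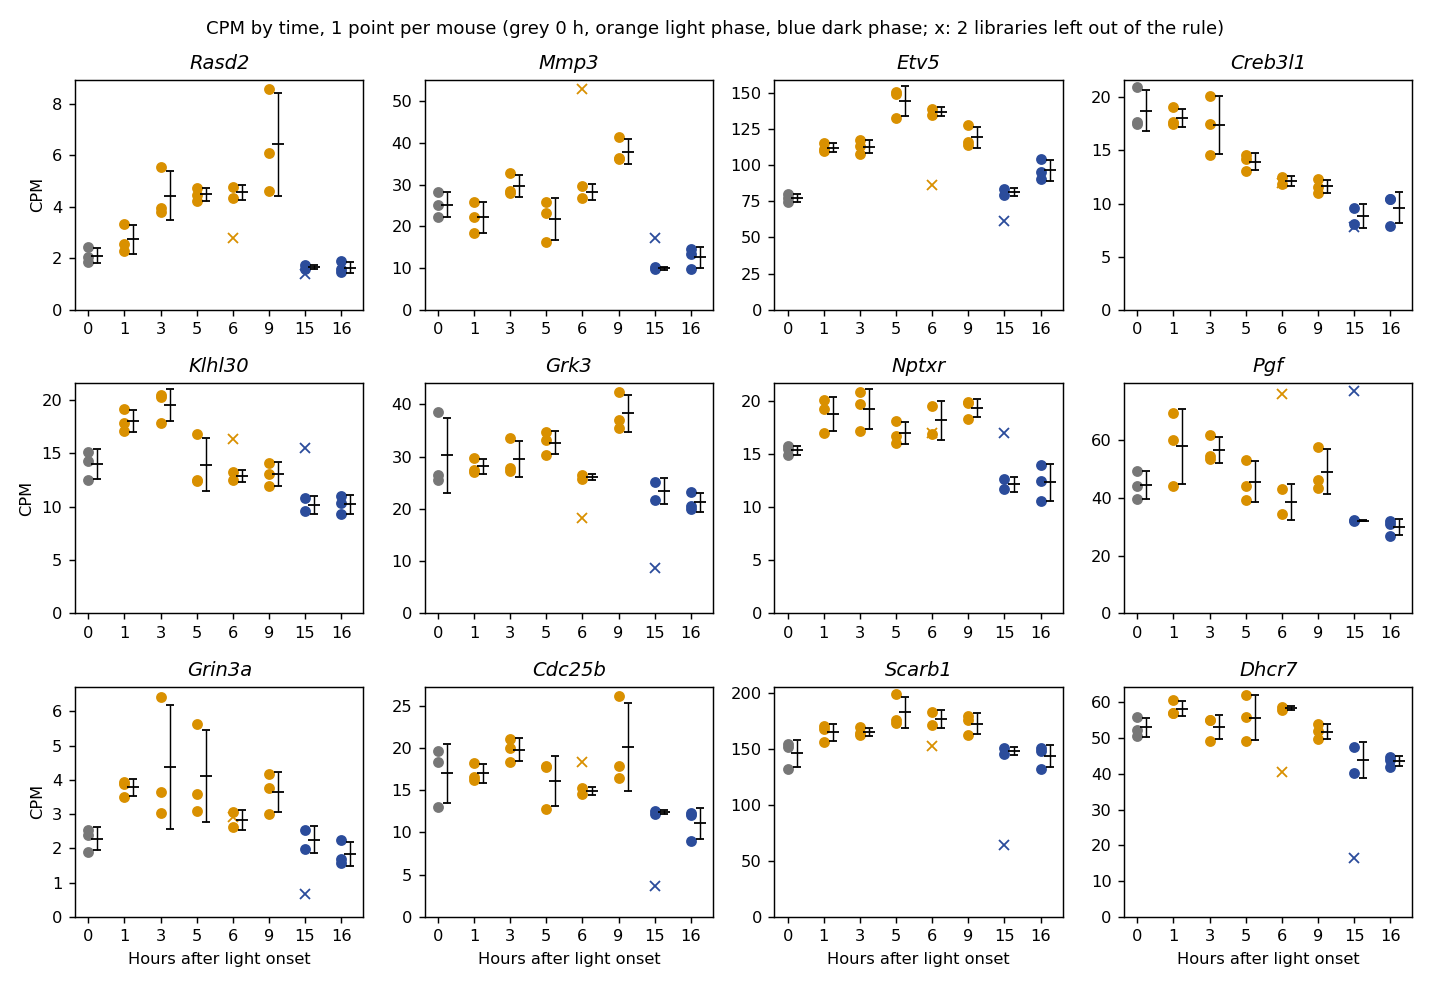
CPM of 12 members is plotted by hours after light onset, with 1 point per mouse and the mean ± SD beside each time (grey 0 h, orange 1 to 9 h, blue 15 and 16 h). Crosses are the 2 libraries that stood apart, which are not in the mean. Rasd2 and Mmp3 are highest at 9 h, Etv5 at 5 h, Klhl30 at 3 h, and Creb3l1 is highest at 0 h and lower at each later time of day.

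Differences among the light-phase times are not the contrast that chose the members, and were tested with edgeR on all 18388 genes that passed a filter on low counts, over the 22 libraries. The rule still used the lowest day library, which limits how far a member can drop within the day. By an F test over 1, 3, 5, 6 and 9 h, 6 of the 32 members varied (18.8%), against 9.98% of all genes. They were Etv5 (adjusted p = 0.00139), Mmp3 (0.00546), Klhl30 (0.00936), Creb3l1 (0.0107), Rasd2 (0.0179) and Grk3 (0.0328). Over all 24 libraries edgeR called 0 members and 20 of 18065 genes, and 5 members had an unadjusted p under 0.05. Relative to 1 h, the log2 level of Rasd2 was higher by 0.67 at 3 h, 0.73 at 5 h, 0.77 at 6 h and 1.23 at 9 h. That of Creb3l1 differed from 1 h by -0.08 at 3 h, -0.35 at 5 h, -0.53 at 6 h and -0.63 at 9 h. So these 2 members ran in opposite directions through the day. Rasd2 lost its call without 1 h #2 (0.0731), 1 h #3 (0.0547) or 9 h #1 (0.0806). That of Grk3 ended without 1 h #2 or #3, 5 h #2, 6 h #1 or #2, or any library of 9 h (0.0537 to 0.154). Etv5, Mmp3, Klhl30 and Creb3l1 stayed below 0.05 when any 1 of the 22 libraries was left out.

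At midday (mean of 5 and 6 h) against morning (mean of 1 and 3 h), 2 members rose and 3 fell, against 5.08% and 5.98% of all genes. Etv5 rose by a log2 fold change of 0.37 (SE 0.05, adjusted p = 0.000162) and Scarb1 by 0.17 (SE 0.05, adjusted p = 0.0475). Klhl30 fell (-0.44, SE 0.10, adjusted p = 0.00403), as did Creb3l1 (-0.40, SE 0.10, adjusted p = 0.0126) and Pgf (-0.40, SE 0.11, adjusted p = 0.0277). Klhl30 averaged 13.9 ± 2.48 CPM at 5 h and 12.9 ± 0.521 CPM at 6 h, against 18 ± 1.04 CPM at 1 h and 19.5 ± 1.46 CPM at 3 h (SD, n = 3, and 2 at 6 h). Among the 16 other FGF and ERK targets tested, 6 rose and 3 fell at midday, and Etv5 made 7 that rose. Of the 12 endothelial markers 11 fell at midday, of 12 fibroblast and mural markers 8 fell, and of 20 RPE identity genes 8 rose and 3 fell. What part these have in the members' changes was not tested. Over the 24 libraries edgeR called 0 members, and 3 had an unadjusted p under 0.05.

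Scarb1 was the least certain of these, with an adjusted p of 0.0523 to 0.178 without 0 h #2, 1 h #1 or #2, any library of 3 h, 5 h #1, 6 h #1 or #2, 15 h #1 or #2, or 16 h #2. With the replicate number as a block it was 0.055, and with no filter on low counts 0.081. Pgf lost its call without 1 h #1, 3 h #2, 5 h #1 or #2, or 6 h #1 (0.0649 to 0.174). Creb3l1 lost it without 6 h #1 (0.0752).

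At 9 h against midday, 2 members rose and 1 fell, against 5.81% and 4.54% of all genes. Mmp3 rose to 38 ± 2.93 CPM at 9 h, against 21.8 ± 5.03 CPM at 5 h and 28.3 ± 1.95 CPM at 6 h (SD, n = 3, and 2 at 6 h), a log2 fold change of 0.59 (SE 0.13, adjusted p = 0.00858). Grk3 rose by 0.37 (SE 0.11, adjusted p = 0.0324), and Etv5 fell (-0.26, SE 0.06, adjusted p = 0.012). Rasd2 at 0.48 (SE 0.21, adjusted p = 0.14) and Cdc25b at 0.35 (SE 0.15, adjusted p = 0.125) did not pass. Of the 12 endothelial markers 10 rose at 9 h, and of 16 macrophage and mast cell markers 6 rose and 1 fell, and their part in the rise of Mmp3 and Grk3 was not tested. Without 9 h #2 all 3 calls ended, at 0.0541 for Mmp3, 0.181 for Grk3 and 0.0563 for Etv5. That of Etv5 also ended without 9 h #1 (0.088), and that of Grk3 without 9 h #1 or #3, 5 h #1 or #2, or 6 h #1 or #2 (0.0529 to 0.106). Over the 24 libraries edgeR called 0 members, and 3 had an unadjusted p under 0.05.

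**Figure D4:**
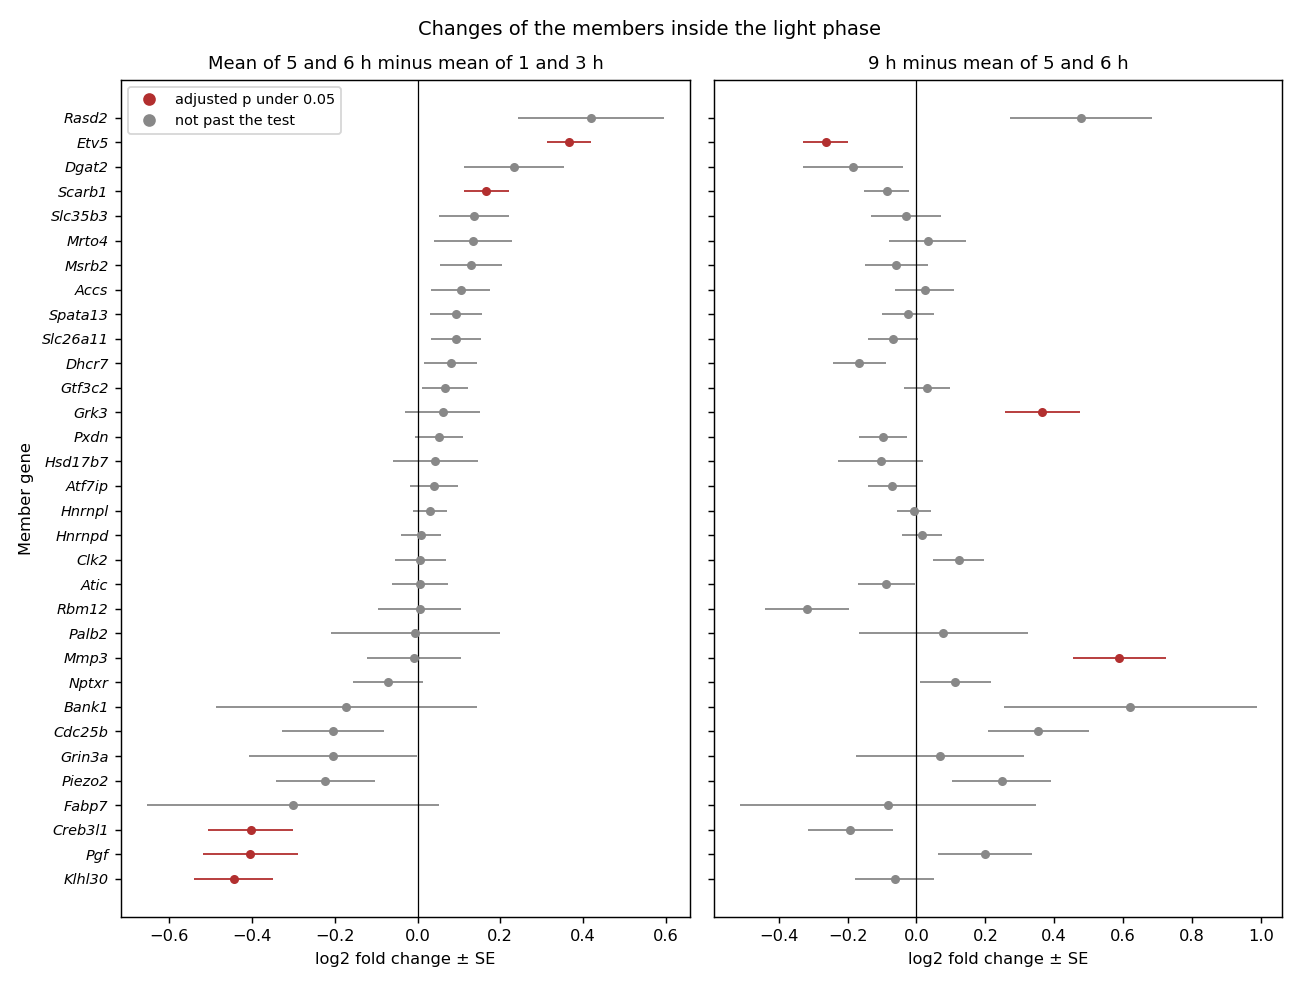
Log2 fold changes with their standard errors are shown for the 32 members, on the left for the mean of 5 and 6 h minus the mean of 1 and 3 h and on the right for 9 h minus the mean of 5 and 6 h. Red points passed an adjusted p under 0.05 in edgeR, 5 on the left and 3 on the right. Both panels use the libraries of 5 and 6 h, so they are not independent.

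The members therefore did not share 1 peak hour. The highest of the 5 daytime means was at 1 h for 3 members, at 3 h for 9, at 5 h for 6, at 6 h for 4 and at 9 h for 10. Creb3l1, Pgf and Piezo2 had it at 1 h, and Rasd2, Mmp3, Grk3, Nptxr and Cdc25b at 9 h. Many of these means lie within the spread of their neighbours, as 26 members did not pass the F test.

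Night times were compared with each other in the same fit. At 16 h against 15 h, 0 of 32 members and 0 of 18388 genes passed (0.0%), with 1 member and 2148 genes at an unadjusted p under 0.05. DESeq2 called 0 members and 111 genes, and limma-voom 0 and 0. The member with the lowest p was Etv5, at 104, 95.1 and 90.2 CPM at 16 h and 83.2 and 79.2 CPM at 15 h (log2 fold change 0.28, SE 0.08, adjusted p = 0.204). Only 2 libraries of 15 h entered this test.

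Light onset itself was outside the contrast, since the 3 libraries of 0 h entered the rule only through the mean level. Of their 96 values over 32 members, 61 were at or above the lowest day value of the gene, 23 at or below its highest night value and 12 between. For 10 members all 3 mice of 0 h were at or above the lowest day value. Among them were Mmp3, Bank1, Klhl30, Piezo2, Pgf, Creb3l1, Dhcr7 and Cdc25b. Some 0 h values of Bank1 and Creb3l1 lay above every day library. Etv5 was the 1 member with all 3 at or below its highest night value. On a log2 scale with the night mean at 0 and the day mean at 1, the 0 h mean had a median position of 0.651 and ran from -0.505 (Etv5) to 1.54 (Bank1). The rule chose night and day limits that do not overlap, and the lowest day value was a median of 1.03 times the highest night value. These placings are thus a description and no test.

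Positions at 0 h are given for single members, with no test between them. Rasd2 (0.245) and Grin3a (0.204) were near their night level while Grk3 (0.90) and Piezo2 (0.748) were nearer their day level. Among lipid genes, Dhcr7 was at 0.821, Hsd17b7 at 0.308, Dgat2 at 0.44 and Scarb1 at 0.0201. Creb3l1 stood at 1.51, above its day mean, with 18.7 ± 1.95 CPM at 0 h, 9.28 ± 1.24 CPM at night and 14.8 ± 3.01 CPM by day (SD, n = 3, 5 and 14).

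**Figure D5:**
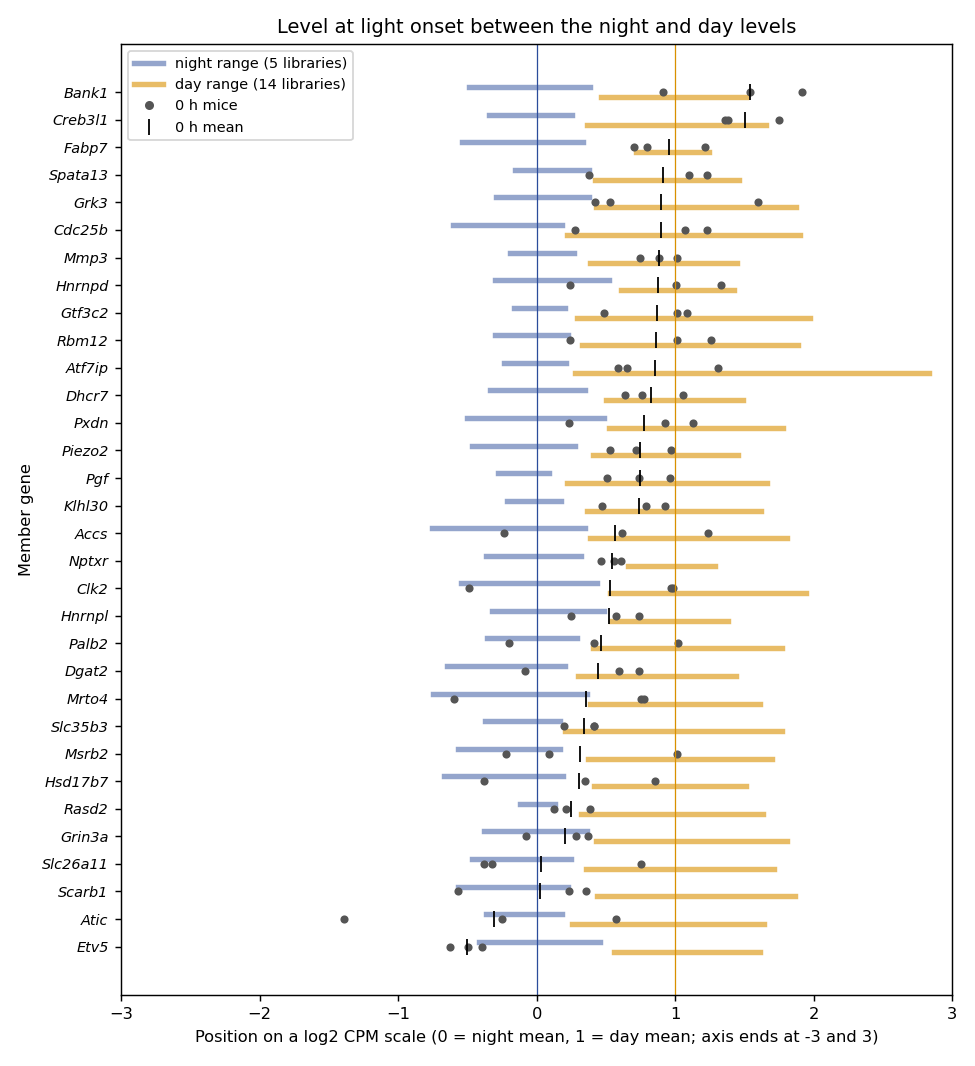
Positions of the 3 mice of 0 h (dots) and of their mean (bar) are drawn for each member on a log2 CPM scale set to 0 at the night mean and 1 at the day mean, with the range of the 5 night libraries in blue above that of the 14 day libraries in orange. Most means lie between 0 and 1, with Etv5 and Atic below 0 and Bank1 and Creb3l1 above 1.

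Both libraries that the rule left out give values it did not use. Library 15 h #3 was at or below the highest night value in 25 of 32 members. It was at or above the lowest day value in 7, which were Nptxr, Mmp3, Klhl30, Pgf, Msrb2, Accs and Mrto4. Most of the 25 lay below every night library used, as Atic at 5.84 CPM against 29.9 CPM in the lowest. Hsd17b7 was at 2.36 CPM against 8.91 CPM, and Cdc25b at 3.61 CPM against 8.95 CPM. The share over all genes was not counted for either left-out library, so these counts are no result about the members. Sums of lists without members also left the night range in 15 h #3, in both directions. Core clock genes summed to 1482 CPM there against 2251 CPM in the lowest night library. RPE identity genes summed to 90494 CPM against 58533 CPM in the highest. Library 6 h #3 was at or above the lowest day value in 16 and at or below the highest night value in 14. In 2 it was between. Some of these values lay outside both ranges, as Pgf at 76.0 CPM (highest day 69.6 CPM) and Atf7ip at 54.6 CPM (lowest night 73.3 CPM). Mrto4 and Msrb2 were at 48.5 and 55.4 CPM in 15 h #3, 25.8 and 37 CPM in 6 h #3, and at most 18.9 and 30.9 CPM in the other day libraries. With both libraries in the rule 12 members remained, Rasd2, Grin3a, Cdc25b, Fabp7, Palb2, Dgat2, Creb3l1, Rbm12, Slc35b3, Atic, Hnrnpd and Scarb1.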

How the data were processed

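The values deposited by the authors are raw read counts, whole numbers with no normalization, for 24 libraries and Ensembl gene identifiers. STAR, HTSeq and mm10 are named in the submitters' processing notes, without versions or settings. The kit named in the labels' protocols does not mark strand. Reads in exonic bases that genes on opposite strands share thus cannot be told apart. For Gtf3c2, Rbm12 and Nptxr the shared bases lie with genes on the same strand. All 32 members were found in GENCODE vM21 (GRCm38), 9 share exonic bases with another gene, and 98.3% of its shared identifiers have the file's coordinates, which are printed counted from 1. Gene length in bases is the deposited column.

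CPM here are counts over the column sum. Tests used edgeR 4.0.16 in R 4.3.3 on 22 libraries (filterByExpr, minimum count 10, 18388 of 54532 genes, 99.92% of counts; TMM scaling; robust quasi-likelihood fit with 1 mean per time; Benjamini-Hochberg over all genes; calls under 0.05). The code was tested on simulated counts. DESeq2 1.42.0 and limma-voom (limma 3.58.1) were alternatives, with other scaling, no filter, all 24 libraries, a replicate block and each library left out. Members and lists were chosen with earlier results of these data known. Named genes are Rasd2, Grin3a, Cdc25b, those with the largest gaps, the highest levels or values at the limit, called members, list members and the genes set aside, and other members were named for known roles after their values were seen. The labels call the 3 libraries of a time biological replicates, and among 276 pairs of libraries none agreed within sampling noise (lowest chi-square per degree of freedom 6.08). Their number limits the precision.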

Additional observations from a re-analysis of the deposited data

How the results depend on the processing

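The count of 32 members was 30 with TMM-scaled CPM (26 shared), 27 with a mean of at least 5 CPM, 36 with no minimum and 32 over all gene types, but 12 with 6 h #3 and 15 h #3 kept. It was 32 to 55 when 1 library was left out, with 55 for 15 h #1, 50 for 15 h #2 and 53 for 16 h #2; leaving a night or day library out can only add genes to the gap rule. Over the 24 libraries 0 members were called in each of the 3 light-phase tests (6, 5 and 3 in 22). When 1 library was left out these counts were 4 to 6 for the F test, 2 to 5 for midday against morning and 0 to 3 for 9 h against midday. Midday against morning gave 3 without 1 h #1, 3 h #2 or 5 h #1 and 2 without 6 h #1. The comparison of 9 h with midday gave 1 without 9 h #1 and 0 without 9 h #2. The cause was not tested. For 16 h against 15 h the count was 0 in all 28 alternatives. Of 392 single-gene values under alternatives, 337 kept their call and 55 lost it (14 in the 24 libraries). In the comparisons that have a direction 0 changed it, and the F test has none.

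Over all genes, the F test called 1835 in the 22 libraries and 20 in the 24, 2917 by DESeq2, 3566 with no filter and 1057 without 6 h #1. Midday against morning gave 2034, 52 in the 24 libraries and 847 without 6 h #1. The comparison of 9 h with midday gave 1903, 1 in the 24 libraries, 757 without 6 h #1, 308 without 9 h #1 and 899 without 9 h #2. For 16 h against 15 h it was 0, with 0 to 6 on leaving out 1 library, 724 with no filter, 2 with DESeq2's size factors in edgeR and 111 by DESeq2. With the replicate number as a block, 6, 4, 3 and 0 members were called in the 4 tests, and Scarb1 lost its call. The numbers only name mice: same-numbered libraries of different times had deviations correlated from -0.447 to 0.439 over 71 pairs, 25 of them over 0.1, and 10 of 22 libraries correlated best with their own number. Fabp7, Bank1, Palb2, Rasd2 and Grin3a average under 5 CPM, and depth limits their values most.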
